A study of Mus musculus with 7 samples.

Results

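The genes described here encode synapse-organizing adhesion molecules, cell-surface proteins that join the 2 sides of a synapse. They are the 42 protein-coding genes of the deposited table whose symbol is on a list of neurexins, LAR-type receptor phosphatases, neuroligins, Lrrtm, Slitrk, Flrt, Lrfn, Lrrc4, latrophilin, contactin and Cadm genes, together with Il1rapl1, of 55416 genes in all, 21885 of them protein-coding. By the side on which each protein is mainly known to act, 5 members were counted as presynaptic, 24 as postsynaptic and 13 as acting on either side. All 42 were detected and passed the low-count filter, which left 17254 genes for testing. RNA was sequenced from the prefrontal cortex (PFC) of female mice that had received a recombinant adeno-associated virus (rAAV). Ctr mice received the empty vector (3 libraries), Ref mice the human long noncoding RNA PAXIP1-AS1 with the C allele (2 libraries) and Alt mice the same RNA with the G allele (2 libraries). Every vector, the empty one included, carried an EGFP reporter behind the human synapsin promoter, which is active in neurons, and the study used C57BL/6 mice. The age of the mice and the time from injection to tissue collection for RNA were not given in the sources used here, nor whether a library came from 1 mouse or from a pool, so p-values measure the spread between these libraries, which may be technical.

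Neurexins and the LAR-type phosphatases Ptprd, Ptprf and Ptprs sit on the axon terminal and bind, across the cleft, leucine-rich repeat proteins, neuroligins and other partners on the dendrite. Such pairs align the release site with the receptors opposite it and bear on whether a contact becomes excitatory or inhibitory. Latrophilins (Adgrl1 to Adgrl3), contactins and Cadm proteins are found on axons, dendrites or both and act through teneurins, Flrt proteins, other immunoglobulin proteins or through one another.

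The libraries held 16655697 to 20750857 counts and were scaled by TMM factors of 0.924 to 1.05. No 2 libraries of a group agreed within sampling noise, and the chi-square per degree of freedom of 58.0 between the Alt libraries exceeded the 18.6 to 25.0 within Ctr and Ref. Markers of cortical neurons were present, with a summed level of 4618 to 6123 CPM (counts relative to the library's TMM-scaled total) for 9 excitatory neuron genes, and no gene of any marker list was at 0 in every library. The summed level of 10 oligodendrocyte genes was 2425 to 3431 CPM in Ctr, 4101 to 5101 in Ref and 2374 to 2904 in Alt. That of 8 astrocyte genes was 5428 to 7042 CPM in Ctr, 7419 to 8955 in Ref, and 11386 and 8127 in Alt. In bulk tissue, fewer cells of a type and less RNA per cell cannot be told apart.

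Levels of the members were compared with one another on the length-scaled TPM values, as means over the 3 Ctr libraries. Cadm4, a homophilic adhesion protein, was the most abundant at 297 ± 9.78 TPM (SD), followed by Cntn1, a GPI-anchored axonal protein, at 239 ± 5.36, the postsynaptic Lrrc4b, a partner of LAR-type phosphatases, at 233 ± 47.4 and Cadm2 at 194 ± 30.6. The SDs of Cadm4 and Cntn1 did not reach each other, whereas that of Lrrc4b overlapped both Cntn1 and Cadm2. Cntn5 was the lowest at 3.20 ± 0.415 TPM. Among the other families the highest member was Adgrl1 at 140.0 ± 10.9 TPM, Nlgn2, the neuroligin of inhibitory synapses, at 126 ± 24.2, Lrrtm2, a neurexin ligand, at 81.9 ± 10.6, Ptprs at 80.5 ± 9.06, Nrxn2 at 77.2 ± 12.6, Slitrk1 at 72.2 ± 4.70, Flrt2 at 52.1 ± 6.32 and Lrfn1 at 47.1 ± 7.81. The summed TPM of a presynaptic family was 144 for the 2 neurexins and 144 for the 3 phosphatases. The postsynaptic sums ran more widely, from 11.6 for Il1rapl1 and 93.4 for the 3 Flrt genes to 171 for the 3 neuroligins, 209 for the 5 Slitrk genes and 458 for the 3 Lrrc4 genes.

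**Figure D1:**
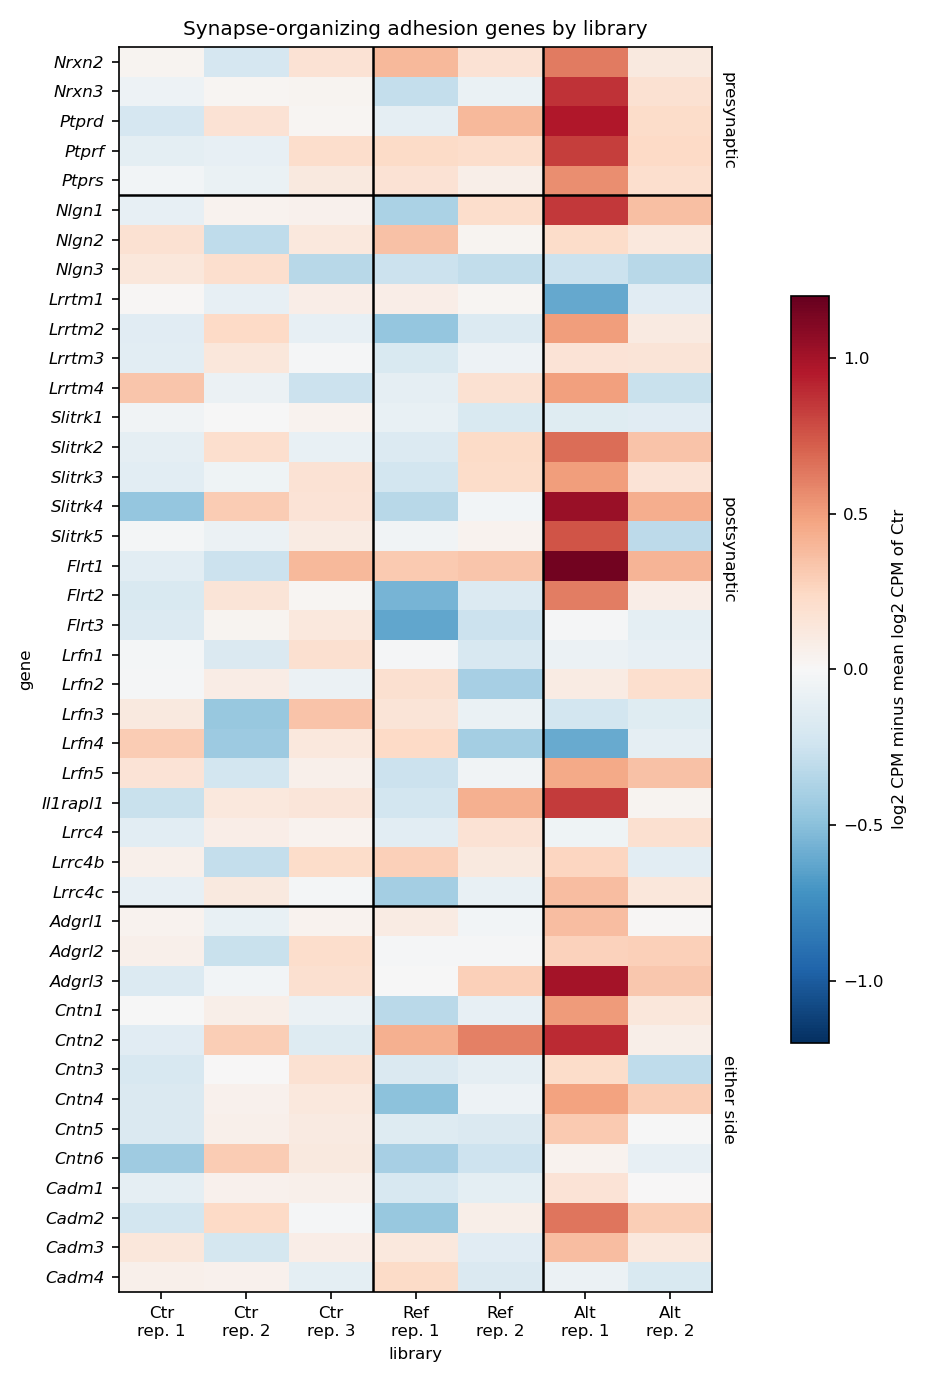
Heat map of the 42 members (rows, grouped by side) in the 7 libraries (columns, with the replicate number), coloured by log2 CPM minus the mean log2 CPM of the 3 Ctr libraries. The column of Alt replicate 1 is red for most genes, with a member median of 0.42 against 0.12 in Alt replicate 2 and -0.12 and -0.03 in the Ref libraries.

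Alt mice were compared with Ctr mice to ask how the G allele transcript related to gene expression against the empty vector. Of the 42 members 13 passed an unadjusted p of 0.05, and all 13 were higher in Alt. That is 31.0% of the members, where 19.8% of all genes tested passed in either direction, 9.45% higher and 10.3% lower. With edgeR's quasi-likelihood test and Benjamini-Hochberg adjustment over every gene tested, 0 members passed an adjusted p of 0.05 and the smallest value was 0.127, while DESeq2 called 5 (Adgrl3, Flrt1, Nlgn1, Nrxn3 and Slitrk4) and 6.36% of all genes. The fitted log2FC was above 0 for 32 of 42 members against 47.9% of all genes. The member median was 0.26, with a range from -0.37 to 0.81, and the median of all genes was -0.03. In each of the 13 genes Alt replicate 1 was the highest of the 7 libraries, and in 12 of them both Alt libraries lay above all Ctr libraries. Of all members 17 had both Alt libraries above Ctr and 2 both below, against 16.8% and 18.1% of all genes.

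Of the 5 presynaptic members 4 passed the unadjusted p, all higher in Alt. That is 80% of them, against 19.8% of all genes in either direction and 9.45% higher. Nrxn3, a neurexin (ENSMUSG00000066392.13, chromosome 12 from 88689646 to 90301709 as the deposited table lists it), had 237, 251 and 252 CPM in the Ctr libraries, 202 and 233 in Ref, and 449 and 280.4 in Alt. Both Alt libraries were above every other library, and the Ref libraries were below the Ctr libraries. The difference from Ctr was log2FC 0.56 ± 0.19 (SE), unadjusted p = 0.0112, adjusted p = 0.150. Ptprd had 179, 233 and 210.0 CPM in the Ctr libraries, 192 and 271 in Ref, and 402 and 241 in Alt. Here Ref replicate 2 lay above Alt replicate 2, so that Alt was apart from Ctr but not from Ref (log2FC 0.63 ± 0.22 (SE), unadjusted p = 0.0152, adjusted p = 0.163). Ptprf had 79.4, 80.6 and 99.7 CPM in the Ctr libraries, 101 and 99.6 in Ref, and 153 and 101 in Alt, and Ptprs had 343, 331 and 381 CPM in the Ctr libraries, 395 and 368 in Ref, and 517 and 403 in Alt. In Ptprf the lower Alt library exceeded the highest Ctr library by less than the range of the Ctr libraries, and so it did in Ptprs. The log2FC against Ctr was 0.55 (adjusted p = 0.153) for Ptprf and 0.39 (adjusted p = 0.198) for Ptprs. Nrxn2, the more abundant of the 2 neurexins, had 314, 268 and 348 CPM in the Ctr libraries, 403 and 347 in Ref, and 474 and 334 in Alt, with overlap of all groups and a log2FC of 0.38 (adjusted p = 0.268).

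Among the 24 postsynaptic members 5 passed the unadjusted p, all higher in Alt. That is 20.8% of them, near the 19.8% of all genes in either direction, with 9.45% of all genes higher. Flrt1, a ligand of latrophilins (ENSMUSG00000047787.9, chromosome 19 from 7069366 to 7083094), had 25.7, 23.5 and 36.8 CPM in the Ctr libraries, 35.0 and 35.4 in Ref, and 63.0 and 37.4 in Alt. Alt replicate 2 was within 1 CPM of the highest Ctr library, and Alt replicate 1 alone stood far above (log2FC 0.81 ± 0.25 (SE), unadjusted p = 0.00682, adjusted p = 0.131). Macrod1, which overlaps Flrt1 on the other strand, held 10.4% as many counts as Flrt1 and had a log2FC of -1.80 in Alt against Ctr. Slitrk4, which binds LAR-type phosphatases (ENSMUSG00000046699.15, chromosome X from 63308491 to 63320602), had 51.1, 87.6 and 79.0 CPM in the Ctr libraries, 56.1 and 69.2 in Ref, and 145 and 95.6 in Alt. The Ctr libraries spread widely, from the lowest of all 7 libraries to just under Alt replicate 2, and the fold change was 1.66 (log2FC 0.73 ± 0.24 (SE), unadjusted p = 0.00970, adjusted p = 0.143). Nlgn1, the neuroligin of excitatory synapses (ENSMUSG00000063887.14, chromosome 3 from 25480379 to 26386609), had 87.6, 96.6 and 97.3 CPM in the Ctr libraries, 72.1 and 109 in Ref, and 168 and 120.0 in Alt. Its Ctr libraries lay close together, with 1 Ref library below and 1 above them, and both Alt libraries were above all others (log2FC 0.62 ± 0.20 (SE), unadjusted p = 0.00903, adjusted p = 0.142). Slitrk2 had 48.9, 60.6 and 49.6 CPM in the Ctr libraries, 47.0 and 61.7 in Ref, and 84.2 and 66.9 in Alt (log2FC 0.51, adjusted p = 0.167). Lrfn5, another partner of the LAR-type phosphatases, had 99.3, 76.2 and 92.6 CPM in the Ctr libraries, 74.4 and 86.5 in Ref, and 122 and 114 in Alt (log2FC 0.40, adjusted p = 0.203). In Slitrk2 and Lrfn5 both Alt libraries were above the other 5, and Lrfn5 had the closest pair of Alt libraries among these 5 genes.

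The other 19 postsynaptic members did not pass, and 7 of the 24 had a log2FC below 0. Nlgn2 had 238, 169 and 228 CPM in the Ctr libraries, 268 and 214 in Ref, and 244 and 229 in Alt, with overlap of Alt and Ctr and the highest value in Ref replicate 1 (log2FC 0.16, adjusted p = 0.668). The most abundant Slitrk, Lrfn and Lrrc4 genes also lay near 0, with a log2FC of -0.14 for Slitrk1, -0.09 for Lrfn1 and 0.06 for Lrrc4b. The members of a family did not share 1 value. Within the neuroligins the log2FC ran from -0.31 to 0.62, within Slitrk from -0.14 to 0.73, within Lrfn from -0.37 to 0.40 and within Lrrtm from -0.36 to 0.31. No member of Lrrtm or Lrrc4 passed in this comparison. The values of the members that did not pass ran from -0.37 in Lrfn4, which binds PSD-95, to 0.48 in Il1rapl1, a partner of Ptprd.

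Of the 13 members that act on either side 4 passed the unadjusted p, all higher in Alt. That is 30.8% of them, against 19.8% of all genes in either direction and 9.45% higher. Adgrl3, a latrophilin and so a receptor of teneurins and Flrt proteins (ENSMUSG00000037605.17, chromosome 5 from 81167985 to 81972980), had 78.3, 85.9 and 99.9 CPM in the Ctr libraries, 87.1 and 107 in Ref, and 175 and 109.8 in Alt. Alt replicate 2 was close to Ref replicate 2, and Alt replicate 1 was far above both. This was the member with the smallest p (log2FC 0.69 ± 0.20 (SE), unadjusted p = 0.00519, adjusted p = 0.127), a 1.62-fold difference. Adgrl1, at a higher level per length, had 362, 329.6 and 361 CPM in the Ctr libraries, 375 and 343 in Ref, and 452 and 354 in Alt, and its Alt and Ctr libraries overlapped (log2FC 0.20, adjusted p = 0.499). Cadm2 had 471, 651 and 544 CPM in the Ctr libraries, 401 and 577 in Ref, and 857 and 675 in Alt (log2FC 0.46, adjusted p = 0.218). Cntn4 had 62.0, 72.3 and 76.3 CPM in the Ctr libraries, 49.7 and 66.9 in Ref, and 97.6 and 85.9 in Alt (log2FC 0.39, adjusted p = 0.244). In both genes the Alt libraries were the highest 2 of the 7. Cntn2, known from myelinated axons and also made by oligodendrocytes, had 80.2, 108 and 79.5 CPM in the Ctr libraries, 119 and 134 in Ref, and 165 and 92.7 in Alt. Alt replicate 2 lay inside the Ctr range, and both Ref libraries were above Ctr (log2FC for Alt against Ctr 0.53, adjusted p = 0.228). Cntn1 and Cadm4, the most abundant contactin and Cadm gene, did not pass, at a log2FC of 0.33 (adjusted p = 0.266) and -0.13 (adjusted p = 0.718). The other 6, Adgrl2, Cntn3, Cntn5, Cntn6, Cadm1 and Cadm3, lay between -0.06 and 0.26.

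**Figure D2:**
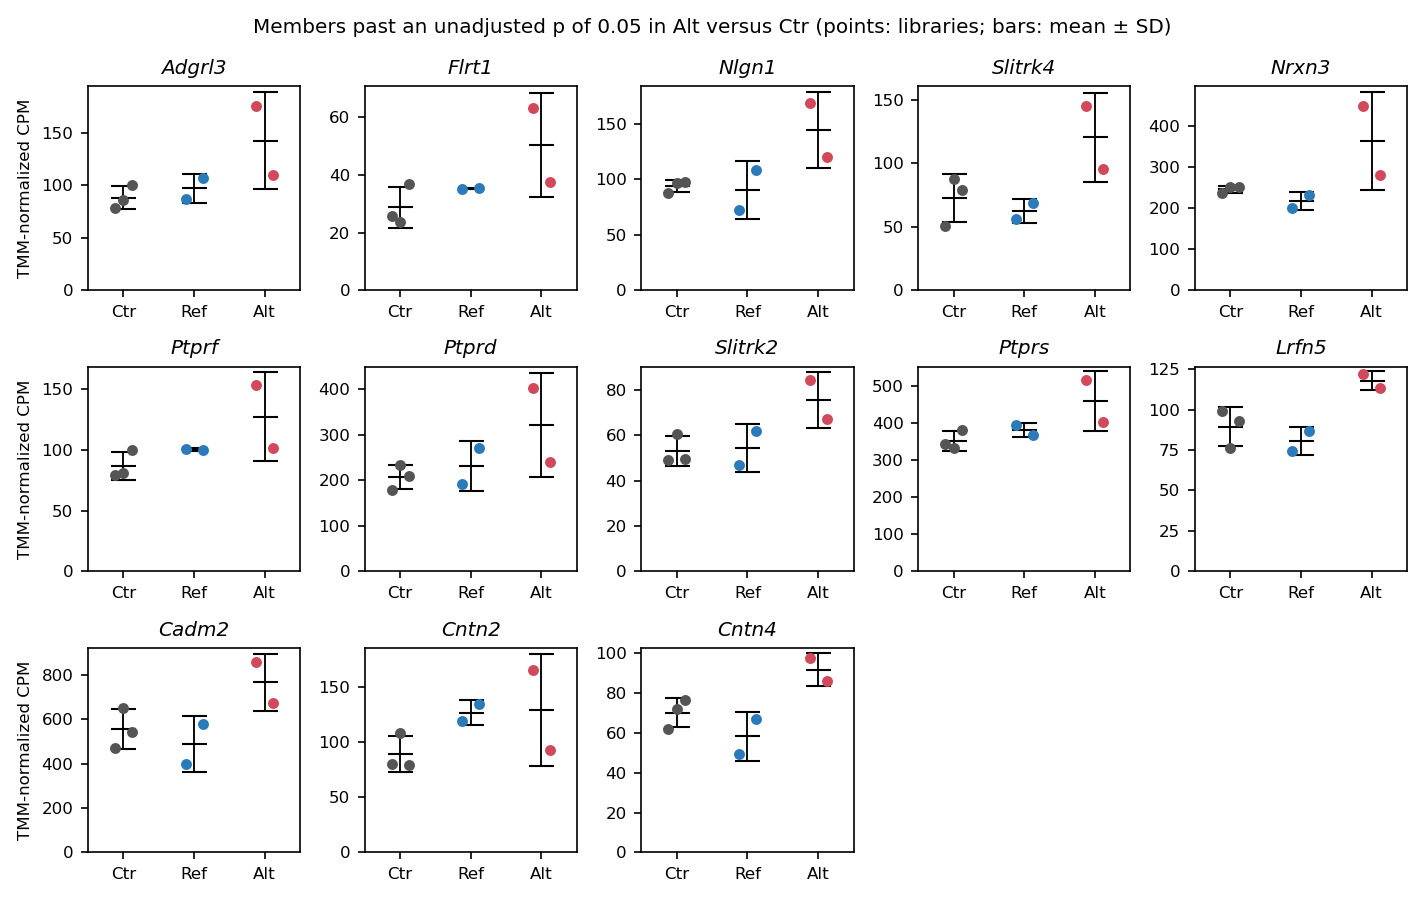
TMM-normalized CPM (y axis, from 0) of the 13 members past an unadjusted p of 0.05 in Alt versus Ctr, with 1 point per library and bars for the mean ± SD of 3 Ctr, 2 Ref and 2 Alt libraries. In every panel the highest point is Alt replicate 1, the left Alt point, and in all but Cntn2 both Alt points lie above the Ctr points.

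The upstream sequence of the members was read for a motif of ZGPAT, a zinc finger repressor that the study examined with PAXIP1-AS1. The 250 bases before each RefSeq gene start (assembly GRCm38.p6) were searched on both strands for the 4 spellings of this motif, GGAGGAGA, GGAGGAAA, GGAGAAGA and GGAGAAAA. A window was available for 33 members, and 6 of them (18.2%) held a match in at least 1 window, against 11.3% of 27025 genes. Some genes have more than 1 window. Counted by window, 7 of 45 member windows (15.6%) held a match, against 9.92% of 32851 windows. No window was at hand for Nlgn3, Flrt1, Lrrtm2, Cadm1, Ptprd, Nrxn2, Slitrk4, Lrfn2 and Lrfn1. Of the 13 genes above 10 had a window and 4 a match, Nlgn1, Nrxn3, Cadm2 and Slitrk2, and the other 2 matches were in Cntn1 and Cadm3. The windows of the 4 genes that held a match are printed 5′ to 3′ on the gene's strand, with the match in capitals. For Nrxn3, first and second start name the 2 windows with a match and do not count all its starts. A match describes letters only and is not a binding site.
Nlgn1 (chr3:26153987-26154236, minus strand): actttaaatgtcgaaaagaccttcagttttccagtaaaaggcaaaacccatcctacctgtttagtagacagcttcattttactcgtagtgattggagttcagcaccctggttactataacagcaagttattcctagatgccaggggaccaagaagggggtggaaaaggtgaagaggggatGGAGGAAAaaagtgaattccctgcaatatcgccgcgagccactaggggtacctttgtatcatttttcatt
Nrxn3, first start (chr12:88794254-88794503, plus strand): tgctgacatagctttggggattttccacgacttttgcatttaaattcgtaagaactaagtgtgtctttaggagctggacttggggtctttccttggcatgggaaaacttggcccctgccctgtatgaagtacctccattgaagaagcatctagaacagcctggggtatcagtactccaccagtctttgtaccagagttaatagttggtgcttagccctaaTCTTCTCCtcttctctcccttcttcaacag
Nrxn3, second start (chr12:88953140-88953389, plus strand): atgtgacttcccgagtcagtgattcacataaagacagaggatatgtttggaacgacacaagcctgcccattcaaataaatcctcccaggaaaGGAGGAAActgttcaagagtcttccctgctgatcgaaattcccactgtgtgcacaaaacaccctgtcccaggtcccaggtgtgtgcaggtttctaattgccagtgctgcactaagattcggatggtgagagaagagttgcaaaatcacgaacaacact
Cadm2 (chr16:67620909-67621158, minus strand): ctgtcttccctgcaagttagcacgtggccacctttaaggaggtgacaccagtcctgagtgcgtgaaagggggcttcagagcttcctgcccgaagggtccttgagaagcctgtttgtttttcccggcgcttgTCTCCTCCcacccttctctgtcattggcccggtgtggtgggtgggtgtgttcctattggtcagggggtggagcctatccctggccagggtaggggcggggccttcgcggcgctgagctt
Slitrk2 (chrX:66652909-66653158, plus strand): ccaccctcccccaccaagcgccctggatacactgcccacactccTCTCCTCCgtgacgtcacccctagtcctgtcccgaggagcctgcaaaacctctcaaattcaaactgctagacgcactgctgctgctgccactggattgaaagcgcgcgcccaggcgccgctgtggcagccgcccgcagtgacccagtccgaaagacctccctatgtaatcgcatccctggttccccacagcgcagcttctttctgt
The match began 70 bases before the start in Nlgn1, 119 in Cadm2 and 206 in Slitrk2. It began 30 and 158 bases before the 2 Nrxn3 starts printed here. It lay on the gene's own strand in Nlgn1 and at the second Nrxn3 start, and on the opposite strand in the other 3 windows.

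The 2 Alt libraries did not carry the difference equally. Relative to the mean log2 CPM of Ctr, the median of the 42 members was -0.10, 0.03 and 0.08 in the Ctr libraries, -0.12 and -0.03 in Ref, and 0.42 and 0.12 in Alt. Alt replicate 1 was above every Ctr library in 32 members and Alt replicate 2 in 18, where 34.3% and 27.2% of all genes were. For the Ref libraries these counts were 10 and 8, against 26.2% and 24.9% of all genes. Below every Ctr library were 3 members in Alt replicate 1, 6 in Alt replicate 2, and 15 and 10 in the Ref libraries, against 38.6%, 26.8%, 22.4% and 22.8% of all genes. With an Alt library left out, the other one was assumed to vary like the Ctr and Ref libraries, which differed less among themselves than the Alt libraries did. Without Alt replicate 1, 0 members passed the unadjusted p in edgeR's test (8.14% of all genes) and the member median was 0.11. Without Alt replicate 2, 22 passed, 21 of them higher (33.2% of all genes), and without Ctr replicate 1, 7 passed (11.8% of all genes). The summed astrocyte, excitatory neuron and general neuronal markers were also highest in Alt replicate 1, the last at 7234 CPM against 5518 to 6559 in the other libraries. Gene by gene, 1 astrocyte marker was higher and 2 lower of 8 in Alt than in Ctr past the unadjusted p. Of 9 excitatory neuron markers 4 were higher and 1 lower, and of 6 general neuronal markers 1 was higher and 1 lower. With all 7 libraries 19.8% of all genes passed in either direction. The part of these markers in the members' values was not tested.

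The members' difference moved with gene length. Members were long, with a median of 6989 bases in the deposited table against 4051 for all genes tested. Across the 42 members, Spearman's rho between length and the log2FC of Alt against Ctr was 0.68, and across all 17254 genes it was 0.33. These genes share the same 7 libraries and are not independent replicates. In single libraries the rho of the members was 0.63 in Alt replicate 1, 0.49 in Alt replicate 2, 0.40 in Ref replicate 2 and -0.19 in Ref replicate 1. The 14 shortest members, of 2161 to 5263 bases, had a median log2FC of 0.07 and 0 past the unadjusted p. The 14 of middle length had 0.28 and 5, and the 14 longest, of 9271 to 22822 bases, had 0.43 and 8. After a correction that removes each library's trend on gene length, these medians were 0.20, 0.16 and 0.13. With the same correction 4 members were past the unadjusted p, 9.52% of the members against 16.4% of all genes. Flrt1 (log2FC 0.76), Slitrk4 (0.53) and Ptprf (0.33), which had also passed without it, were higher in Alt. Nlgn3 (-0.54), which had not passed without it, was lower.

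**Figure D3:**
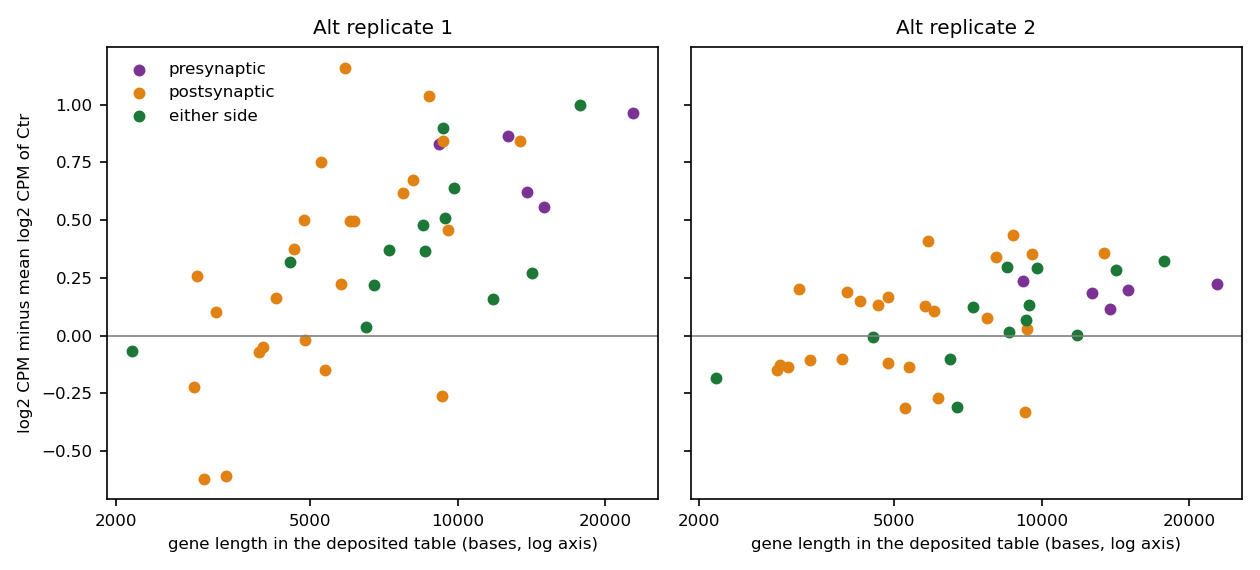
Gene length in the deposited table (x axis, bases, log axis) against log2 CPM minus the Ctr mean (y axis) for the 42 members, coloured by side, in Alt replicate 1 (left) and Alt replicate 2 (right). The points rise with length in both panels (Spearman's rho 0.63 and 0.49) and spread further above 0 in Alt replicate 1.

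The sides were set against each other as medians of the fitted log2FC of Alt against Ctr. The presynaptic median was 0.55, the postsynaptic 0.16 and that of members on either side 0.24, so that the presynaptic median exceeded the postsynaptic by 0.40. By library, this difference was 0.01, -0.10 and 0.05 in Ctr, 0.32 and 0.21 in Ref, and 0.51 and 0.11 in Alt. All Ref and Alt libraries were above the Ctr libraries, Alt replicate 2 was below both Ref libraries, and the pooled SD between libraries of a group was 0.16. No test was made, since the members of a side share their libraries. The presynaptic members had a median length of 13812 bases and the postsynaptic of 5311, and after the length correction the difference was -0.19. Counting the latrophilins as presynaptic gave 0.31, and counting Flrt genes on either side gave 0.40. In Alt against Ref the medians lay closer together, at 0.34 presynaptic, 0.30 postsynaptic and 0.29 for members on either side.

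**Figure D4:**
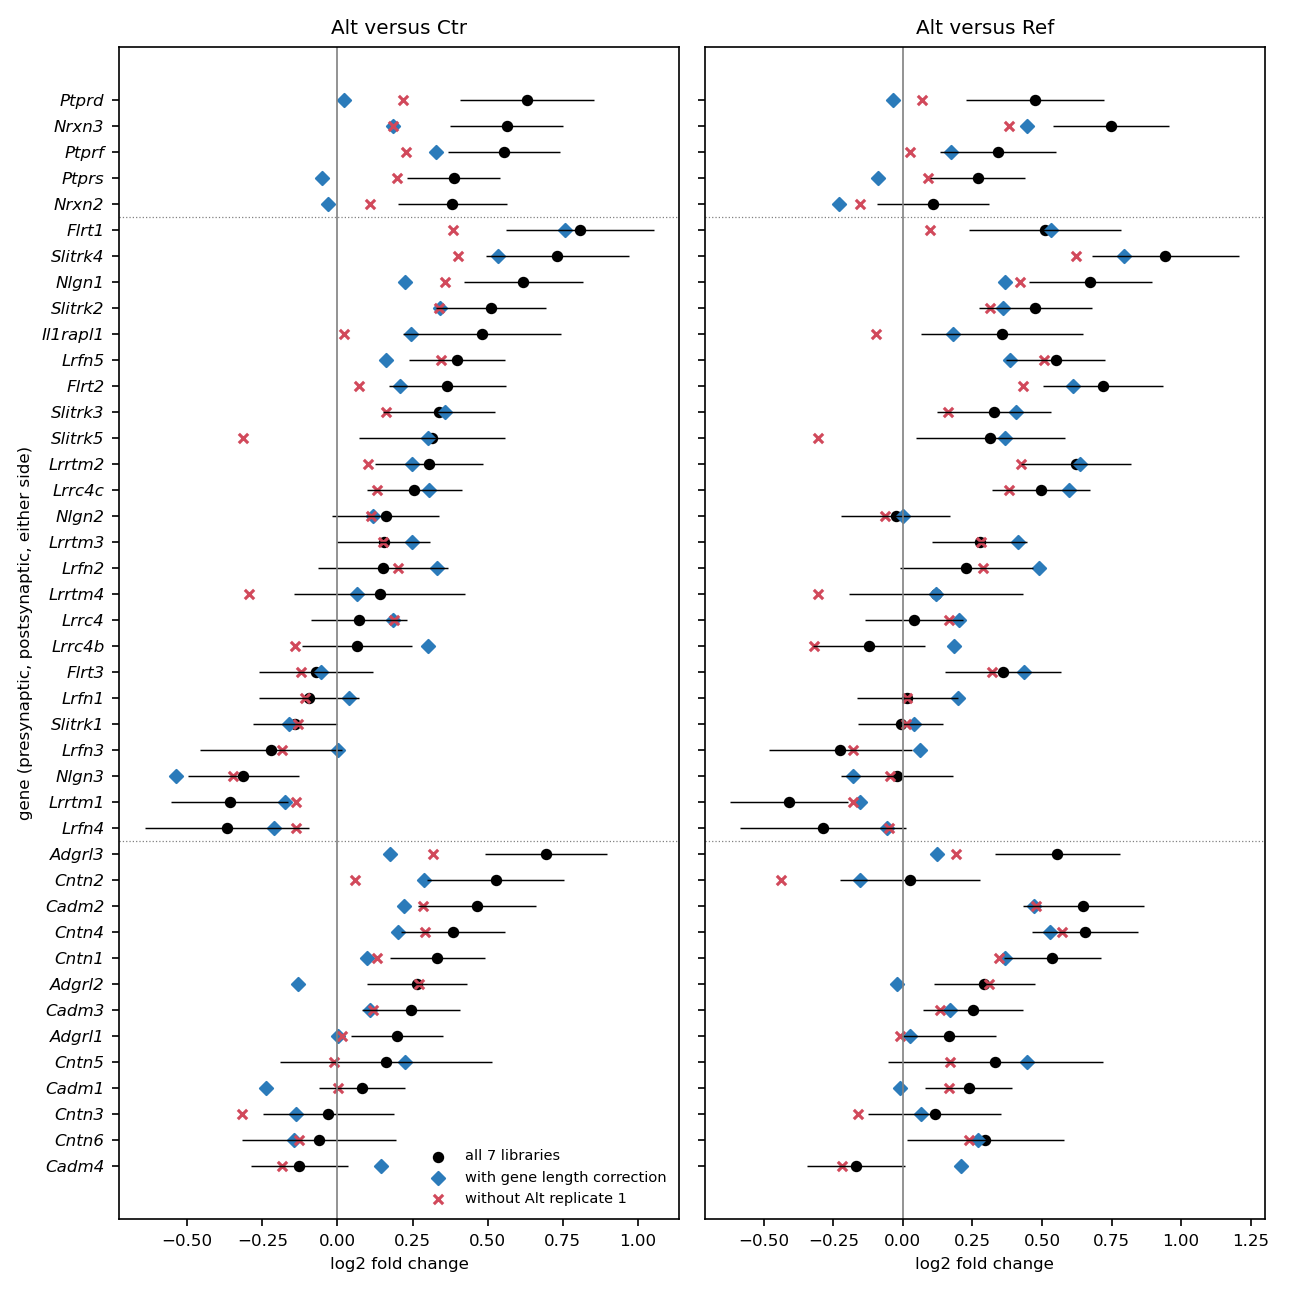
Fitted log2FC (x axis) of each member in Alt versus Ctr (left) and Alt versus Ref (right), ordered by side and by the Alt versus Ctr value, with all 7 libraries (circles, bars ± 1 SE), with the gene length correction (diamonds) and without Alt replicate 1 (crosses). In Alt versus Ctr most crosses and diamonds lie nearer to 0 than the circles, and the presynaptic Ptprs and Nrxn2 have diamonds below 0.

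Alt was compared with Ref to set the alleles against each other. Of the 42 members 12 passed the unadjusted p, all higher in Alt, which is 28.6% of the members against 15.5% of all genes, 6.71% higher and 8.83% lower. Of 10 oligodendrocyte markers 8 were lower in Alt than in Ref past the unadjusted p, at a median log2FC of -0.85, and their part in the members' values was not tested. By edgeR with Benjamini-Hochberg adjustment 0 members passed (0.00580% of all genes), with a smallest adjusted p of 0.233, while DESeq2 called 5 (Cntn1, Cntn4, Flrt2, Nrxn3 and Slitrk4) and 2.49% of all genes. The log2FC was above 0 in 34 of 42 members (47.1% of all genes) with a median of 0.29. Both Alt libraries were above both Ref libraries in 22 members and below them in 2, against 21.6% and 26.1% of all genes. The comparison shares the Alt libraries with that against Ctr, and 8 members passed in both (Adgrl3, Cadm2, Cntn4, Lrfn5, Nlgn1, Nrxn3, Slitrk2 and Slitrk4). The share of all genes that passed in both is not given here, so the overlap has no background to be read against. Cntn1, Flrt2, Lrrc4c and Lrrtm2 passed against Ref only, which is no test of a difference between the comparisons. By side, 1 of 5 presynaptic, 7 of 24 postsynaptic and 4 of 13 members on either side passed.

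The smallest p-values against Ref belonged to Nrxn3 (log2FC 0.75 ± 0.21 (SE), unadjusted p = 0.00387, adjusted p = 0.233), Slitrk4 (log2FC 0.94 ± 0.27 (SE), unadjusted p = 0.00408, adjusted p = 0.233), Cntn4 (log2FC 0.65, adjusted p = 0.236) and Flrt2 (log2FC 0.72, adjusted p = 0.236). Flrt2, a ligand of latrophilins and Unc5 receptors, had 103, 130.3 and 119 CPM in the Ctr libraries, 79.5 and 104 in Ref, and 179 and 123 in Alt. Alt replicate 2 lay within the Ctr range, while Ref replicate 1 was the lowest of all libraries. Lrrtm2 had 131, 168 and 133 CPM in the Ctr libraries, 104 and 127 in Ref, and 202 and 154 in Alt (log2FC against Ref 0.62, adjusted p = 0.236), and both Ref libraries were below every Ctr library. Ctnna1, which overlaps Lrrtm2 on the other strand, held 48.7% as many counts and had a log2FC of 0.01 in Alt against Ctr. Without Ref replicate 1, 2 members passed against Ref, Nrxn3 and Slitrk4, which is 4.76% of the members against 4.19% of all genes. Here and in the next fits the group with 1 library left was assumed to vary like the other groups. Without Alt replicate 1, 5 passed, Cadm2, Cntn4, Lrfn5, Nrxn3 and Slitrk4 (6.76% of all genes), and without Alt replicate 2, 20 passed, 19 of them higher (28.9% of all genes). With the length correction 11 passed, all higher in Alt, against 13.0% of all genes.

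Ref was compared with Ctr to ask the same of the C allele. Here 2 of 42 members passed the unadjusted p, 4.76% against 3.14% of all genes (2.19% higher and 0.945% lower), and none by edgeR's adjusted p or DESeq2's. The log2FC was above 0 in 18 members, against 50.8% of all genes, and the member median was -0.04. Both Ref libraries were above all Ctr libraries in 1 member and below them in 6, against 12.4% and 10.5% of all genes. Cntn2 was higher in Ref (log2FC 0.50 ± 0.23 (SE), unadjusted p = 0.0478, adjusted p = 1), and both Ref libraries exceeded all Ctr libraries. Markers of oligodendrocytes moved with it, as 8 of 10 were above Ctr in Ref past the unadjusted p, at a median log2FC of 0.78, and their part in the Cntn2 value was not tested. Flrt3 had 31.0, 35.5 and 37.9 CPM in the Ctr libraries, 22.5 and 29.1 in Ref, and 34.2 and 32.0 in Alt and was lower in Ref (log2FC -0.43 ± 0.19 (SE), unadjusted p = 0.0435, adjusted p = 1). Macrod2, which overlaps Flrt3 on the other strand, held 225% as many counts as Flrt3. Flrt2 and Lrrtm2 followed by p, at a log2FC of -0.35 and -0.32, both at an adjusted p of 1. Leaving out 1 library at a time gave 0 to 3 members past the unadjusted p (1.25% to 5.52% of all genes), and the length correction gave 5, of which Cntn2 was higher and Cntn4, Flrt2, Flrt3 and Lrrtm2 were lower in Ref (5.15% of all genes).

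Counting near neighbours could touch some of these values, since the strand setting of the counting was not given in the sources used here. By the table's coordinates 10 members overlapped another protein-coding gene, and for 9 the neighbour held at least 5% as many counts as the member. Among the other 33 members 12 passed the unadjusted p in Alt versus Ctr, all higher, so that Flrt1 was the only one of the 13 with such a protein-coding neighbour. Of noncoding neighbours, Gm16054, a long noncoding RNA gene on the other strand of Adgrl3, held 5.73% as many counts as Adgrl3 and had a log2FC of 1.01 in Alt against Ctr.

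A list of 48 genes, called partners here, was counted in the same way. It holds partners of these adhesion molecules and other synaptic proteins, such as Lgi1 and its receptor Adam23. In Alt against Ctr 16 were past the unadjusted p higher and 1 lower, 35.4% of the list against 19.8% of all genes, and their median log2FC was 0.24. Of 31 extracellular partners 11 were higher and 1, Igsf21, lower, and of 17 intracellular partners 5 were higher. Shank1, a scaffold of the postsynaptic density, had 498, 486 and 759 CPM in the Ctr libraries, 756 and 704 in Ref, and 1564 and 825 in Alt (log2FC 1.04 ± 0.25 (SE), unadjusted p = 0.00158, adjusted p = 0.120). Both Alt libraries were above all others, by far in Alt replicate 1. Cask, which binds the neurexin tail inside the terminal, had 109, 129 and 126 CPM in the Ctr libraries, 109 and 141 in Ref, and 229 and 159 in Alt (log2FC 0.68, adjusted p = 0.122). The teneurins, ligands of latrophilins, had a log2FC of 1.06 (adjusted p = 0.122) for Tenm1, 0.85 (adjusted p = 0.124) for Tenm4, 0.67 (adjusted p = 0.127) for Tenm2 and 0.39 (adjusted p = 0.374) for Tenm3. Adam23, a receptor of Lgi1, likewise had 161, 174 and 159 CPM in the Ctr libraries, 168 and 209 in Ref, and 289 and 227 in Alt (log2FC 0.65, adjusted p = 0.120), and both Alt libraries were above all others. With the length correction 8 partners passed higher and 3 lower, 22.9% of the list against 16.4% of all genes. The partner median was then 0.09, and without Alt replicate 1 it was 0.13. Without Alt replicate 1, 2 passed, 4.17% of the list against 8.14% of all genes.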

How the data were processed

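RNA-seq libraries of female mouse PFC (3 Ctr, 2 Ref, 2 Alt) were grouped and numbered by their sample titles. In the single deposited table the authors gave read counts per gene and library that were not normalized, and TPM values made from these counts and a gene length in bases. FPKM columns were not used. The submitters' processing notes list STAR, featureCounts and the human build hg19 without roles, while the gene identifiers are mouse Ensembl ones. The strand setting and annotation were not given in the sources used here, so gene coordinates are as the table lists them and were not joined with GRCm38.p6.

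The tests were run with edgeR 4.0.16 under R 4.3.3 (TMM, filterByExpr by group, glmQLFit and glmQLFTest on group means of all 7 libraries). P-values are two-sided, with Benjamini-Hochberg adjustment over 17254 tested genes. SEs are |log2FC| divided by the square root of F. Library differences used log2 CPM with a prior count of 2. Because adjusted calls were 0, members were also counted at an unadjusted p of 0.05, beside the same share of all genes. DESeq2 1.42.0 was an alternative, as were other size factors, no low-count filter, protein-coding genes only, the replicate number as a block, each library left out and a length correction (a loess curve of span 0.3 on log2 gene length per library, entered as offsets). Scripts were tested on simulated data.

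The depth of 16655697 to 20750857 counts sets the precision of each value. The members, their sides, the partner list and the marker lists were chosen with earlier results of these data known. Text genes are members past the unadjusted p in Alt versus Ctr, the 4 smallest p in each of the other comparisons, the most abundant member per family and the 6 partners with the smallest p. Igsf21, Tenm3, Cadm3, Nlgn3, Lrfn4, Il1rapl1, Lrrc4c, Cntn5, C1ql3, Cbln4 and overlapping genes were named after their values were seen. Markers of inhibitory neurons, neurons in general, oligodendrocyte precursors, microglia and vessels are given among the closing observations.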

Additional observations from a re-analysis of the deposited data

How the results depend on the processing

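Over all genes, no change of scaling moved the median log2FC by more than 0.1, and 7 libraries with 2 or 3 a group limit the precision. Leaving out an Alt or Ref library leaves 1 in its group, which is then assumed to vary like the other groups. In Alt versus Ctr the count of members past an unadjusted p of 0.05 (13) was 4 with the length correction, 8 with the replicate block and 0 to 22 with 1 library left out. The share of all genes, 19.8% in the reported fit, was then 16.4%, 12.6% and 8.14% to 33.2%. DESeq2, other size factors, no low-count filter and protein-coding genes alone gave 14 to 16 (15.8% to 21.9% of all genes). In Alt versus Ref (12) it was 2 to 20 with 1 library left out (4.19% to 28.9% of all genes, 15.5% in the reported fit). In Ref versus Ctr (2) it was 1 with other size factors, 1 without the low-count filter, 1 with protein-coding genes alone, 5 with the length correction, 0 with the replicate block and 0 to 3 with 1 library left out, where the share of all genes, 3.14% in the reported fit, was 3.10%, 3.0006%, 3.28%, 5.15%, 2.49% and 1.25% to 5.52%. Adjusted calls in Alt versus Ctr (0) were 5 with DESeq2 (6.36% of all genes), 7 without the low-count filter (5.52%) and 0 to 16 with 1 library left out, the highest without Alt replicate 2 (18.3%), against 0% of all genes in the reported fit. In Alt versus Ref the adjusted calls (0) were 5 with DESeq2 (2.49% of all genes) and 5 without the low-count filter (3.16%). The member median in Alt versus Ctr (0.26) was 0.11 to 0.41 with 1 library left out. The presynaptic minus postsynaptic difference (0.40) was -0.19 with the length correction and 0.11 to 0.51 with 1 library left out. The length correction together with leaving out Alt replicate 1, chosen after seeing the data, gave 0 members in Alt versus Ctr, 7 in Alt versus Ref and 8 in Ref versus Ctr (7.39%, 6.48% and 7.67% of all genes), a member median of -0.022 and a side difference of -0.055. The cause of these shifts was not tested.

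Among the genes named by rule, the sign in Alt versus Ctr turned with the length correction for Ptprs (-0.051), Nrxn2 (-0.032), Lrfn1 (0.037) and Cadm4 (0.15), and with the replicate block for Lrfn1 (0.012). With 1 library left out, Lrfn1 ran from -0.17 to 0.0092 and turned without Ctr replicate 3, and Lrrc4b ran from -0.14 to 0.24 and turned without Ctr replicate 2 (-0.063) or Alt replicate 1. With the length correction and without Alt replicate 1 they turned for Nrxn3 (-0.0056), Ptprd (-0.075), Ptprs (-0.033), Cntn2 (-0.064), Flrt2 (-0.016), Nrxn2 (-0.11), Lrrc4b (-0.073) and Adgrl1 (-0.096). Over all 42 members, 7 turned with the length correction, 5 with the replicate block and 13 with the length correction and without Alt replicate 1.

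For same-numbered libraries of different groups, the correlations of their deviations from the group means lay between -0.10 and 0.07. In a group of 2 libraries these deviations mirror each other, so the values cannot decide whether the numbers pair the libraries. With the replicate block, 6 of the 13 members past the unadjusted p in Alt versus Ctr were among the 8.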

Other observations

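Marker genes of the cells in the tissue are given beside the share of all genes past an unadjusted p of 0.05, which was 19.8% in Alt versus Ctr and 15.5% in Alt versus Ref. Of 7 inhibitory neuron genes 3 were lower in Alt than in Ctr past that p, with a median log2FC of -0.35, and their summed level was 286 to 360 CPM in Ctr, 270 and 278 in Ref, and 257 and 252 in Alt. Of 9 excitatory neuron genes 4 were higher and 1 lower, with summed levels of 4618 to 5184 CPM in Ctr, 5325 and 5382 in Ref, and 6123 and 5927 in Alt. Of 6 general neuronal genes 1 was higher and 1 lower. Of 10 oligodendrocyte genes 8 were lower in Alt than in Ref, with a median log2FC of -0.85. Of 6 oligodendrocyte precursor genes 2 were higher in Alt than in Ctr, of 8 astrocyte genes 1 was higher and 2 lower, of 7 microglial genes 1 was higher and 1 lower, and of 7 endothelial and mural genes 1 was higher.

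Among the partners of the adhesion genes, C1ql3, a secreted ligand of adhesion receptors, had 142, 159 and 153 CPM in Ctr, 117 and 120 in Ref, and 240.1 and 182 in Alt. Both Alt libraries were above all others, and edgeR's adjusted p across all genes was 0.143 against Ctr. It was named after its values were seen. Cbln4, a neurexin ligand, had 0.325 CPM in Alt replicate 1 (5 counts, near the floor) and 7.25 in Alt replicate 2, with 3.07 to 6.25 in Ctr. Its log2FC against Ctr was -0.22 (edgeR's adjusted p = 0.913), and Cbln4 too was named after its values were seen.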
